A study of Rattus norvegicus with 125 samples.

Results

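The Slc12 cation chloride cotransporters move chloride across cell membranes together with sodium, potassium or both. Of the 9 Slc12 genes in the expression table of rat kidney tubule segments, 5 are described here, and they were chosen by symbol: Slc12a1, Slc12a2, Slc12a3, Slc12a4 and Slc12a7. They make up 7 of the 17974 RefSeq entries in the table. Values are RPKM, which divides the reads of an entry by its length and by the reads of the library, so they can be compared between genes as a level per length. Slc12a1 has 3 entries, NM_001270617, NM_001270618 and NR_073053. Over the 44 tubule libraries with at least 1 RPKM their ratios lay between 0.997 and 1.01, so the 3 entries cannot be told apart, and values are given for NM_001270618, which had the highest mean. The other genes have 1 entry each, NM_031798 for Slc12a2, NM_019345 for Slc12a3, NM_019229 for Slc12a4 and NM_001013144 for Slc12a7.

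The series profiled tubules dissected by hand from kidneys of untreated male Sprague-Dawley rats of 200 to 250 g after digestion with collagenase, and cortical collecting ducts from a separate water-load experiment. Its 125 samples hold 14 groups of tubule libraries, 5 glomerulus libraries, 8 libraries of the water-load experiment and 7 whole-kidney samples that are not analysed here. The tubule groups are the S1, S2 and S3 proximal tubule (7 libraries each), the descending limb of short loops (SDL, 10), the outer medullary (LDLOM, 9) and inner medullary (LDLIM, 4) descending limb of long loops, the thin ascending limb (tAL, 7), the thick ascending limb of the medulla (mTAL, 7) and of the cortex (cTAL, 7), the distal convoluted tubule (DCT, 8), the connecting tubule (CNT, 6) and the cortical, outer medullary and inner medullary collecting duct (CCD, 11, OMCD, 7, and IMCD, 8). In the water-load experiment 5-week-old rats of the same strain and sex all carried a minipump giving the vasopressin analogue ddAVP at 5 ng per hour, and received either 25 mL of water per day (4 controls) or 50 mL per day (4 water-loaded rats) for 4 days. For the segment libraries digestion took 25 minutes for cortex, 50 for outer medulla and 90 for inner medulla. Between segments of different zones, zone and digestion time cannot be told apart. The glomerulus labels give no rat weight and no digestion time. The labels of the segment libraries do not say which of them came from separate rats, so p-values between segments measure the spread between libraries, which may be technical. A dissected tubule holds several cells, and fewer cells of a type and less RNA per cell cannot be told apart in these data.

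Slc12a1 encodes NKCC2, the apical sodium-potassium-chloride cotransporter of the thick ascending limb and the target of loop diuretics such as furosemide. Slc12a3 encodes NCC, the apical sodium-chloride cotransporter of the distal convoluted tubule and the target of thiazides. Slc12a2 encodes NKCC1, the secretory form of the sodium-potassium-chloride cotransporter, which in epithelia usually lies in the basolateral membrane. Slc12a4 and Slc12a7 encode the potassium-chloride cotransporters KCC1 and KCC4, which carry potassium and chloride out of the cell and take part in the regulation of cell volume. Inherited loss of NKCC2 causes Bartter syndrome and inherited loss of NCC causes Gitelman syndrome, both with renal salt wasting. Kinases of the WNK family act through SPAK and OSR1 to phosphorylate these carriers, which raises the activity of the sodium-coupled members and lowers that of the potassium-chloride cotransporters.

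Depth differed widely between libraries. Between 1538 and 9058 entries reached 1 RPKM in a tubule library (median 4915), 11 tubule libraries had fewer than 2500, and the relative depth read from the steps of low values spanned 14.2-fold. Glomerulus libraries had 9317 to 10020 such entries and those of the water-load experiment 8114 to 9265. An RPKM of exactly 0 is reported as listed at 0, because no counts are given. Over all tubule libraries, Pearson's r of log2(RPKM + 1) with the log2 number of detected entries was -0.01 for Slc12a1, 0.17 for Slc12a2, 0.17 for Slc12a3, 0.44 for Slc12a4 and 0.35 for Slc12a7, each a description over libraries of all segments. The potassium-chloride cotransporters thus had the highest values of r with the number of detected entries among the 5 genes.

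Some libraries stood apart from their label in marker genes. In tAL 1 and tAL 2 the 7 endothelial markers summed to 8160 and 5005 RPKM, against 2.67 to 114 in the other tAL libraries. In tAL 6 and tAL 7 the water channel Aqp1, a descending limb and proximal tubule gene, reached 4296 and 5273 RPKM. Library S3 5 carried 496 RPKM of the 7 thick ascending limb markers, most of it Umod (449 RPKM), against 0.908 to 83.4 in the other S3 libraries. All 8 DCT libraries held thick ascending limb markers, with a sum of 298 to 2058 RPKM against 2207 to 18497 in cTAL. Of the 6 listed DCT markers 4 are in the table, and Pvalb was at 0 in all 8 DCT libraries, whereas Calb1, a calcium-binding protein of the distal nephron, was at 121 to 874 RPKM there. The 4 markers summed to 157 to 991 RPKM in DCT and to 1301 to 9989 RPKM in CNT, so their sum does not set DCT apart. Calb1 is also a listed CNT marker, and Egf is listed for both the thick ascending limb and the DCT. The calls of Slc12a1 from tAL to mTAL and of Slc12a3 in DCT are given with and without these tAL libraries and S3 5, respectively.

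Start-site sequences of RefSeq (build GRCr8) were matched by symbol for all 5 genes, with 250 bases before the annotated start. The 4 windows below are shown because Slc12a1 and Slc12a3 were each high in 1 or 2 segments, whereas Slc12a4 and Slc12a7 were high in some libraries of many segments. Capitals mark TATAAA. A second start of Slc12a1 in the table, with 51.6% G and C, is not shown. The segment values were made on another build, and the windows serve only to show the sequence.
Slc12a1, chr3:132859340-132859589, plus strand: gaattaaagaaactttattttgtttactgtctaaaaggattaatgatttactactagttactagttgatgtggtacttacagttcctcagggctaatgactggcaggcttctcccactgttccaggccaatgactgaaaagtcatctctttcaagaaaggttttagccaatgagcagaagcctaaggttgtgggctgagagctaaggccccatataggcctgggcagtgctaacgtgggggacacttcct
Slc12a3, chr19:10675051-10675300, minus strand: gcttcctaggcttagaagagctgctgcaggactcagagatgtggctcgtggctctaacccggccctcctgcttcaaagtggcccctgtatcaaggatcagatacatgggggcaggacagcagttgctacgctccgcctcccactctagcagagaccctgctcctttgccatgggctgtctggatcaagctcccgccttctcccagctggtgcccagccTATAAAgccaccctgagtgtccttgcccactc
Slc12a4, chr19:50770123-50770372, minus strand: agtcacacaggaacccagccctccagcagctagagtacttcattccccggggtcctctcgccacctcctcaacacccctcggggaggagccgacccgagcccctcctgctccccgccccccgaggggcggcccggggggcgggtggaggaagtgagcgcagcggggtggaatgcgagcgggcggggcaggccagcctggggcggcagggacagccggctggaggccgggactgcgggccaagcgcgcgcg
Slc12a7, chr1:31354626-31354875, minus strand: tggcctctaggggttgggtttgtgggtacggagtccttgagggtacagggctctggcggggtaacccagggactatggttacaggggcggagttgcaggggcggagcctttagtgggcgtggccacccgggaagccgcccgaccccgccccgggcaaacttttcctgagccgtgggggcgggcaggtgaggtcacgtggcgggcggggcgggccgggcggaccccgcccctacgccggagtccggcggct
The share of G and C was 43.6% for Slc12a1 and 59.2% for Slc12a3, against 74.8% for Slc12a4, 71.6% for Slc12a7 and, in a window not shown, 83.2% for Slc12a2, with a median of 51.2% over the 33469 promoters of the RefSeq table. Of these promoters 99.6% had a lower share than Slc12a2, 96.4% a lower share than Slc12a4, 93.6% a lower share than Slc12a7, 73.0% a lower share than Slc12a3 and 22.7% a lower share than Slc12a1. TATAAA was found in the Slc12a3 window, 32 bases before the start, and 12.9% of all promoters hold it on either strand. Also searched on both strands were GTTAAT, which 6.45% of promoters hold, and TGTTCT, which 17.5% hold. Neither was in these windows, which says only that these letters are not there.

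The 5 genes fell along the nephron into 3 kinds of pattern. Slc12a1 was high in the thick ascending limb and Slc12a3 in the DCT. Slc12a2 was highest in the OMCD, at lower levels. Slc12a4 and Slc12a7 had no segment of that kind among the tubules, and their values ran from 0 to 81.4 and 0 to 95.2 RPKM within SDL alone.

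**Figure D1:**
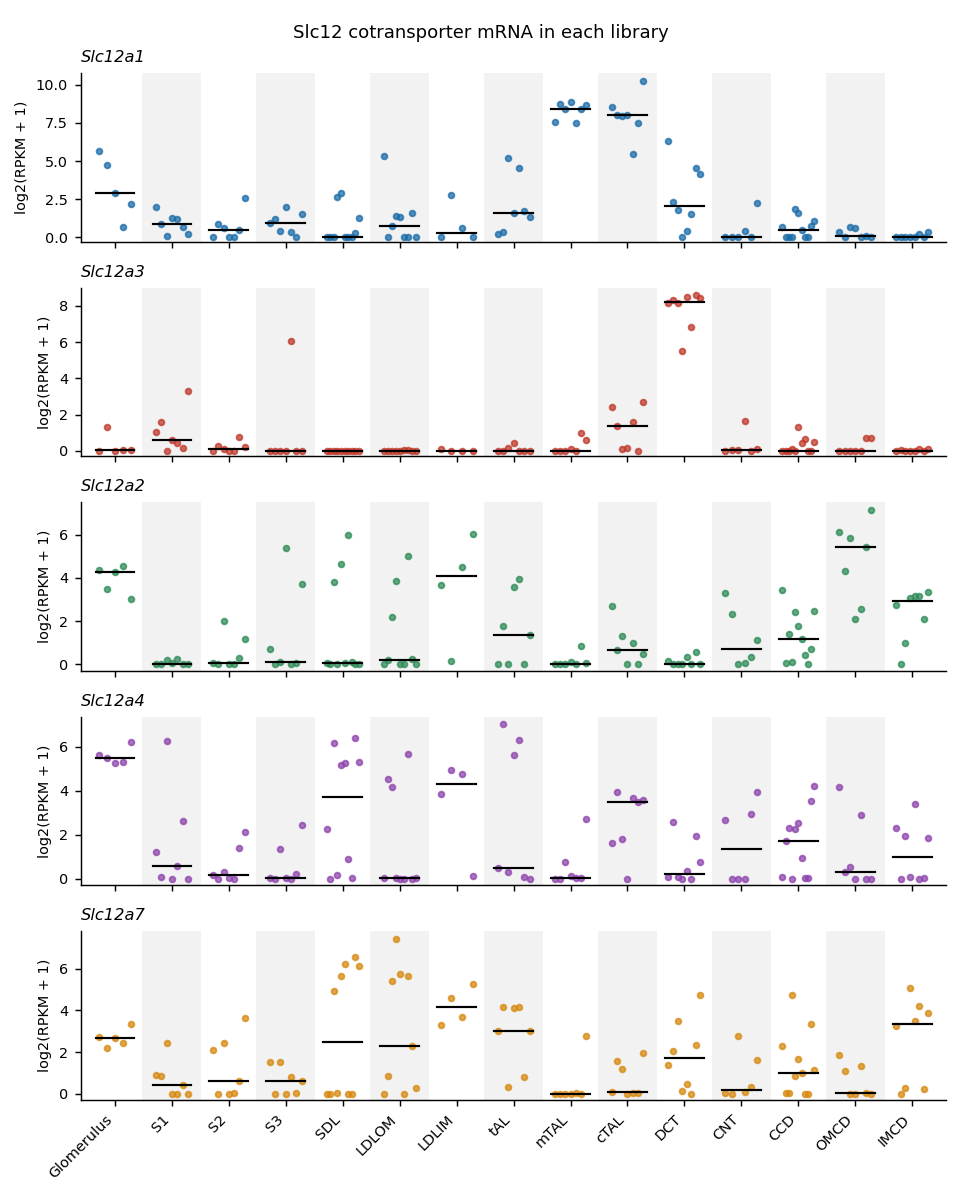
RPKM of each of the 5 genes on a log2(RPKM + 1) scale (y axis, own scale per gene) in the 5 glomerulus libraries and all tubule libraries, ordered along the nephron (x axis). Each point is 1 library and each bar the median of a group. Slc12a1 stands high in mTAL and cTAL, Slc12a3 in DCT and Slc12a2 in OMCD, whereas points of Slc12a4 and Slc12a7 spread from 0 to high values within the thin limb groups.

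Changes were tested in 1 limma fit of all tubule libraries on log2(RPKM + 1), and log2 changes are on that scale, the second segment minus the first. A change counted as called where its log2 size was at least 1 and its adjusted p below 0.05. Over the 14 pairs of neighbouring segments the 5 genes gave 70 tests, of which 6 were called, against 2.7% of all tests of all entries. At an unadjusted p under 0.05 the number was 16. The 6 calls were 2 each for Slc12a1, Slc12a3 and Slc12a2, and groups did not overlap in 3 of them. For counts at an unadjusted p and counts without overlap, here and below, no share over all entries was computed. Such counts only describe these genes and do not say whether they are unusual. Under quantile normalization and with the number of detected entries as a covariate, all 6 kept their direction.

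Slc12a1 rose at the start of the thick ascending limb and fell at its end. In tAL its values ran from 0.140 to 36.0 RPKM with a median of 1.99, and in mTAL from 178 to 457 RPKM with a median of 347. Every mTAL library lay above every tAL library. The mean was 9.16 ± 14.2 RPKM in tAL and 336 ± 112 RPKM in mTAL (SD, n = 7 each). The log2 change was 6.18 ± 0.71 (SE), with an adjusted p of 6.95e-11 by limma. Slc12a1 was the only 1 of the 5 genes called between these segments, where 6.54% of all entries were called and 1.07% were called higher in mTAL. The 2 highest tAL values of Slc12a1, 36.0 RPKM in tAL 3 and 21.9 in tAL 5, were in the libraries with the most thick ascending limb markers of that group (1395 and 852 RPKM). Without tAL 1, 2, 6 and 7 the log2 change of Slc12a1 was 4.54 ± 0.90 with an adjusted p of 1.83e-04 by limma, a setting chosen after seeing the data. The 7 leukocyte markers also moved with this boundary, at 421 to 1184 RPKM in mTAL against 0.550 to 746 RPKM in tAL, and their part in the result was not tested.

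Within the thick ascending limb the level of Slc12a1 did not pass the test between the medullary and the cortical part. In cTAL the values ran from 42.4 to 1212 RPKM with a median of 255. The cTAL libraries lay both below and above the range of the mTAL libraries, with cTAL 5 lowest and cTAL 7 highest. From mTAL to cTAL the log2 change was -0.35 ± 0.71 with an adjusted p of 0.914 by limma, while the median change of all entries was 0.55 and 1.12% of them were called.

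In the DCT the transcript was lower and uneven. Its values ran from 0.00958 to 80.1 RPKM with a median of 3.24, and the mean fell from 368 ± 386 RPKM in cTAL (SD, n = 7) to 15.95 ± 27.2 RPKM in DCT (SD, n = 8). The groups overlapped through 1 library on each side, cTAL 5 at 42.4 RPKM and DCT 1 at 80.1 RPKM. The log2 change was -5.33 ± 0.69 with an adjusted p of 6.22e-09 by limma, in a comparison where 1.03% of entries were called and 0.462% were called lower. In the 3 DCT libraries above 10 RPKM of Slc12a1, DCT 1, 7 and 8, the thick ascending limb markers summed to 1379, 2058 and 1765 RPKM, against 298 to 904 RPKM in the other 5, and their part in the DCT level was not tested. From DCT to CNT, where values ran from 0 to 3.68 RPKM with a median of 0.0134, the log2 change of -2.18 ± 0.72 had an adjusted p of 0.101 by limma.

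Outside these segments Slc12a1 was low, with group medians from 0.00783 RPKM in SDL to 0.964 RPKM in S3 in the other tubule groups. The highest library there was LDLOM 1 at 38.5 RPKM. Its thick ascending limb markers summed to 1595 RPKM, of which Umod gave 2.62 RPKM, and its intercalated cell markers to 551 RPKM, against at most 42.7 and 12.9 RPKM in the other LDLOM libraries. In the order of mean log2 levels mTAL came first (8.31) and cTAL second (7.96), each above the 12 other segments by the test and not apart from each other. DCT followed at 2.63 and tAL at 2.13, and DCT was called above 4 segments. Of the 91 pairs of segments 28 were called for Slc12a1, against 6.74% of all tests over all entries, and 23 of the 28 did not overlap.

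Among tubule libraries Slc12a3 exceeded 10 RPKM only in the 8 DCT libraries and 1 S3 library. In DCT its values ran from 44.99 to 382 RPKM with a median of 302 and a mean of 267 ± 122 (SD, n = 8). In cTAL they ran from 0.00617 to 5.54 RPKM with a median of 1.60, and in CNT from 0 to 2.18 RPKM with a median of 0.0404. Every DCT library lay above every library of both neighbours. The log2 change was 6.61 ± 0.48 from cTAL to DCT and -7.50 ± 0.50 from DCT to CNT, with adjusted p-values of 5.28e-22 and 1.24e-24 by limma. At the first boundary 0.573% of all entries were called higher in DCT, and at the second 2.21% were called and 1.33% were called lower in CNT. The lowest DCT value, 44.99 RPKM in DCT 4, was in a library with 2641 detected entries, the fewest of the DCT group.

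Of the 97 tubule libraries outside DCT, Slc12a3 was listed at 0 in 46, among them all 10 SDL libraries, and reached 1 RPKM in 10. The high S3 value was 65.8 RPKM in S3 5, the library with thick ascending limb markers named above, whereas the other 6 S3 libraries were at or below 0.0108 RPKM. In S3 5 the 4 DCT markers summed to 0.0396 RPKM and Slc12a1 was at 0.263 RPKM. In S1 the values ran from 0 to 8.85 RPKM with a median of 0.502. Slc12a3 was called at least 1 above each of the 13 other segments in DCT, as were 26 of 11695 entries (0.222%), and this held without S3 5 and without the 4 tAL libraries. It was the only 1 of the 5 genes selective for a segment in that sense, which 2.07% of entries were for any segment. No pair of segments without DCT was called for it, and all 13 pairs with DCT were called. Groups overlapped in 1 of these pairs, S3 against DCT, through S3 5 (65.8 RPKM) and DCT 4 (44.99 RPKM).

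Slc12a1 was the higher of the 2 apical sodium carriers in every cTAL library and Slc12a3 in every DCT library. Slc12a1 made up 99.5 ± 1.06% of the summed RPKM of the 5 genes in mTAL (SD, n = 7) and 93.6 ± 8.94% in cTAL (SD, n = 7). In DCT the share of Slc12a3 was 93.6 ± 7.45% and that of Slc12a1 4.43 ± 7.33% (SD, n = 8). Slc12a1 exceeded Slc12a3 in all 7 cTAL libraries, by 20.9-fold to 29706-fold with a median of 219-fold. Slc12a3 exceeded Slc12a1 in all 8 DCT libraries, by 3.54-fold to 4699-fold with a median of 69.2-fold. In mTAL Slc12a3 was listed at 0 in 4 of 7 libraries. These ratios are between levels per length and depend on the transcript model: in the authors' second table, made without polyadenylation-site data, Slc12a1 was 2.08 times and Slc12a3 1.64 times its main value (medians over libraries), and the DCT ratio ran from 2.86 to 3694 with a median of 54.7. The other 3 genes had a median ratio between the tables of 1.

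**Figure D2:**
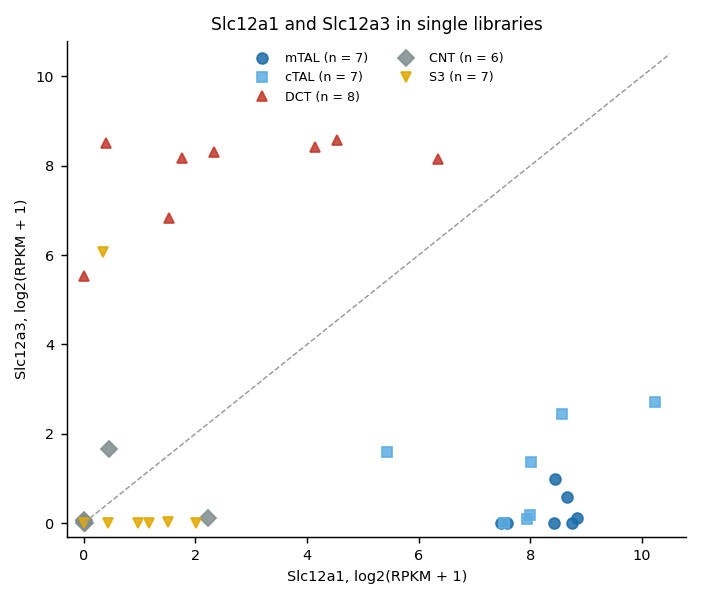
Slc12a1 (x axis) against Slc12a3 (y axis), both log2(RPKM + 1), in single libraries of mTAL, cTAL, DCT, CNT and S3. The dashed line marks equal levels. All 7 mTAL and all 7 cTAL libraries lie below it and all 8 DCT libraries above it, and the S3 library above the line holds 65.8 RPKM of Slc12a3.

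Slc12a2 was highest in the outer medullary collecting duct. Its OMCD values ran from 3.30 to 140 RPKM with a median of 41.9, in CCD from 0.0124 to 9.78 RPKM with a median of 1.29, and in IMCD from 0 to 9.26 RPKM with a median of 6.62. In 5 of 7 OMCD libraries the value lay above every CCD and IMCD library, while OMCD 4 (3.30 RPKM) and OMCD 5 (4.90 RPKM) lay within their ranges. The mean was 2.2997 ± 2.98 RPKM in CCD (SD, n = 11), 47.8 ± 47.9 in OMCD (SD, n = 7) and 5.37 ± 3.51 in IMCD (SD, n = 8). From CCD to OMCD the log2 change was 3.50 ± 0.74 with an adjusted p of 0.00252 by limma. Only 0.103% of all entries were called higher there, 1.37% were called in all, and the median of all entries was -0.58. From OMCD to IMCD the log2 change was -2.45 ± 0.80 with an adjusted p of 0.0372, against a median of 0.55 over all entries, of which 7.7% were called and 1.0% were called lower. The call was lost with a pseudocount of 0.1 (-3.01, adjusted p = 0.165 by limma) and when the 2 groups were fitted alone (-2.45, adjusted p = 0.138), while the direction was kept.

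The 7 intercalated cell markers were high in both CCD (1181 to 4199 RPKM in sum) and OMCD (1107 to 3619 RPKM) and low in IMCD (0.0131 to 146 RPKM). Slc4a1, the anion exchanger that marks acid-secreting intercalated cells, was at 5.75 to 515 RPKM in CCD, 42.6 to 500 in OMCD and 0 to 22.1 in IMCD. Their part in the changes of Slc12a2 at both boundaries was not tested.

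Other segments held Slc12a2 in some libraries only. The 4 LDLIM libraries were at 11.8, 0.101, 21.4 and 64.5 RPKM, so 3 were high and 1 was near 0. From LDLOM, where values ran from 0 to 30.7 RPKM with a median of 0.139, to LDLIM the log2 change of 2.302 ± 0.92 had an adjusted p of 0.160 by limma, in a comparison where 2.72% of entries were called. Without LDLIM 2 it was 3.45 ± 1.00 with an adjusted p of 0.0439. Above 10 RPKM were also 2 S3 libraries (S3 4 at 41.0 and S3 7 at 12.1 RPKM), 3 of SDL (13.1, 24.1 and 61.8 RPKM), 2 of LDLOM (13.3 and 30.7 RPKM) and 2 of tAL (10.9 and 14.4 RPKM), while medians in S1, S2, S3, SDL, LDLOM, mTAL and DCT were at or below 0.139 RPKM. In mTAL and DCT the highest values of Slc12a2 were 0.813 and 0.474 RPKM. In cTAL, where Slc12a1 was also high, Slc12a2 ran from 0 to 5.56 RPKM with a median of 0.580. By mean log2 level OMCD (4.79) was called above 12 segments, LDLIM (3.58) above 4 and IMCD (2.34) above 3, and OMCD and LDLIM did not differ by the test (log2 difference 1.203 ± 0.96, adjusted p = 0.554 by limma). From LDLIM to tAL the log2 change of Slc12a2 was -2.05 ± 0.96 with an adjusted p of 0.426, where 0.752% of entries were called. In all, 19 of 91 pairs were called for Slc12a2, against the 6.74% of tests over all entries, and 4 of the 19 did not overlap.

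**Figure D3:**
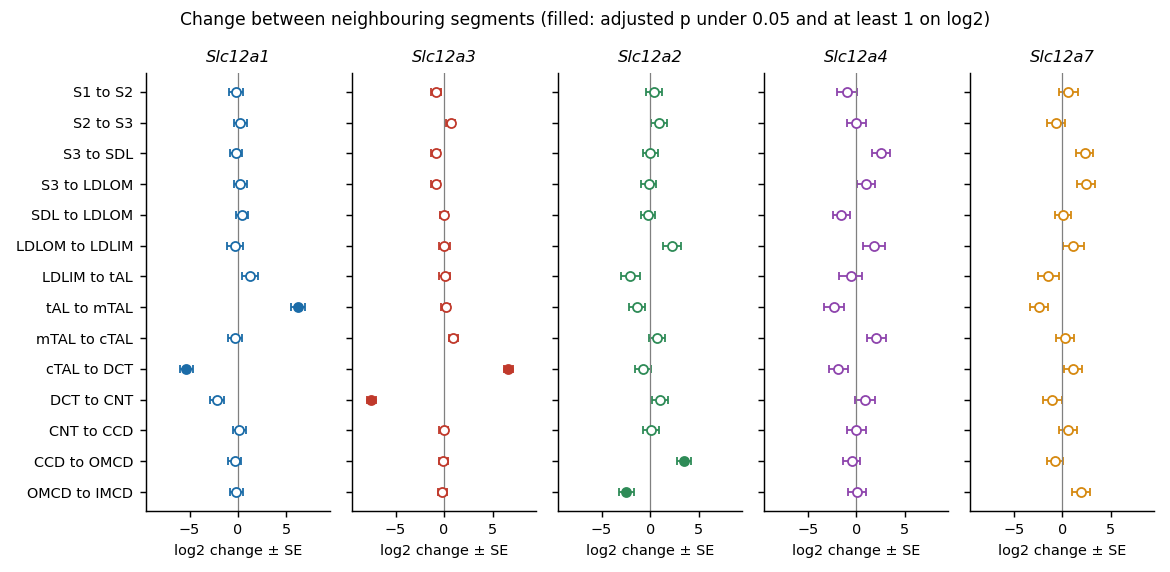
log2 change between neighbouring segments (x axis, ± SE) for each of the 5 genes over 14 pairs (y axis), the second segment minus the first, from 1 limma fit of all tubule libraries. Filled points passed an adjusted p of 0.05 and a log2 change of 1 in size. The 6 filled points are 2 each for Slc12a1, Slc12a3 and Slc12a2, and Slc12a4 and Slc12a7 have none.

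Slc12a4, the KCC1 gene, was called between no 2 tubule segments. None of its 91 pairs passed in the limma fit, against 6.74% of all tests over all entries, and each pair overlapped. Of its 14 neighbour tests 3 had an unadjusted p under 0.05. Its highest group medians among tubules were 19.6 RPKM in LDLIM, 19.5 in SDL and 10.3 in cTAL. In SDL the values ran from 0 to 81.4 RPKM. The 4 LDLIM libraries held 13.3, 29.8, 25.8 and 0.0790 RPKM, so 3 were high and LDLIM 4 was near 0. In tAL the values ran from 0.00762 to 127 RPKM with a median of 0.416. The highest was in tAL 2, one of the libraries with endothelial markers, whereas tAL 1, the other such library, held 0.416 RPKM. Next came tAL 5 at 78.3 RPKM and tAL 4 at 47.7 RPKM, which did not have such sums of endothelial markers. The part of these markers in the Slc12a4 level was not tested. From S3, with a median of 0.0170 RPKM, to SDL the log2 change was 2.58 ± 0.92 with an adjusted p of 0.0690 by limma, in a comparison where 7.55% of entries were called. That change passed under 3 settings: quantile normalization (2.32, adjusted p = 0.0208), without libraries under 2500 entries (2.83, adjusted p = 0.0399) and with detected entries as a covariate (2.47, adjusted p = 0.0303).

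In cTAL Slc12a4 was between 0 and 14.2 RPKM and at least 1 RPKM in 6 of 7 libraries, whereas in mTAL it reached 1 RPKM in 1 of 7. From mTAL to cTAL the log2 change of 2.07 ± 1.00 had an adjusted p of 0.429 by limma. In S1 a single library, S1 3, held 75.3 RPKM and the other 6 were at 5.08 RPKM or less. S1 3 had the highest sums of the S1 group for endothelial markers (129 RPKM, others up to 19.4), principal cell markers (363 RPKM, others up to 72.1) and intercalated cell markers (126 RPKM, others up to 34.2). Their part in the value was not tested. From LDLOM to LDLIM the log2 change was 1.80 ± 1.12 (adjusted p = 0.439 by limma), and from OMCD to IMCD 0.07 ± 0.97 (adjusted p = 1).

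Slc12a7, the KCC4 gene, had its highest group median in LDLIM. The 4 LDLIM libraries held 8.95, 23.6, 11.9 and 37.8 RPKM, the only tubule group in which every library exceeded 1 RPKM of this gene. In SDL the values ran from 0 to 95.2 RPKM with a median of 14.98, in LDLOM from 0 to 173 with a median of 3.92, and in tAL from 0.240 to 17.3 with a median of 6.97. In mTAL 5 of 7 libraries were listed at 0 and the highest held 5.93 RPKM. LDLIM was called above 5 segments, S1, S3, mTAL, cTAL and OMCD, with log2 differences of 3.53 to 3.82 and adjusted p-values of 0.0171 to 0.0370 by limma. In these 5 comparisons the share of all entries called higher in LDLIM ran from 4.24% (against cTAL) to 9.88% (against S3). LDLIM also lay above every CNT library, where the difference missed the test (adjusted p = 0.0663). No other pair was called for Slc12a7, so 5 of its 91 pairs passed, against 6.74% of all tests over all entries. Its calls were thus not more frequent than those of all entries.

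None of the 14 neighbour changes of Slc12a7 was called by limma, and 4 had an unadjusted p under 0.05. These were the changes from S3 to LDLOM (2.44 ± 0.90, adjusted p = 0.113, where 5.18% of entries were called), from S3 to SDL (2.33 ± 0.88, adjusted p = 0.0923), from tAL to mTAL (-2.39 ± 0.96, adjusted p = 0.113) and from OMCD to IMCD (1.94 ± 0.93, adjusted p = 0.207). The change from S3 to LDLOM passed with detected entries as a covariate (2.77, adjusted p = 0.0176 by limma), and that from S3 to SDL without libraries under 2500 entries (2.66, adjusted p = 0.0352). In IMCD the values ran from 0 to 32.8 RPKM with a median of 9.38, and in OMCD from 0 to 2.68 with a median of 0.00947. From mTAL to cTAL the log2 change was 0.29 ± 0.96 (adjusted p = 0.969), and from DCT to CNT -1.03 ± 0.97 (adjusted p = 0.865). In DCT, where Slc12a3 was high in every library, Slc12a7 ran from 0 to 25.5 RPKM with a median of 2.36.

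The 2 potassium-chloride cotransporters were high in the same thin limb libraries more often than not. At a limit of 10 RPKM, 12 of the 30 thin limb libraries held both, 13 held neither, 2 held Slc12a4 alone and 3 held Slc12a7 alone. In SDL the division was complete, with both in 5 libraries and neither in the other 5. The 5 were SDL 3, 5, 6, 9 and 10, at 35.1 to 81.4 RPKM of Slc12a4 and 29.9 to 95.2 RPKM of Slc12a7. The other 5 held at most 3.79 RPKM of Slc12a4 and 0.0267 RPKM of Slc12a7. Detected entries ran from 2844 to 8128 in the 5 high libraries and from 2356 to 3874 in the others, and endothelial markers from 9.58 to 349 RPKM and from 0 to 138 RPKM, and the part of both was not tested. Over all tubule libraries Pearson's r between Slc12a4 and Slc12a7 on log2(RPKM + 1) was 0.50, and 0.64 over the 14 segment means. The other 9 pairs among the 5 genes gave -0.23 to 0.24 over libraries. These correlations share libraries and depth and are descriptions.

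**Figure D4:**
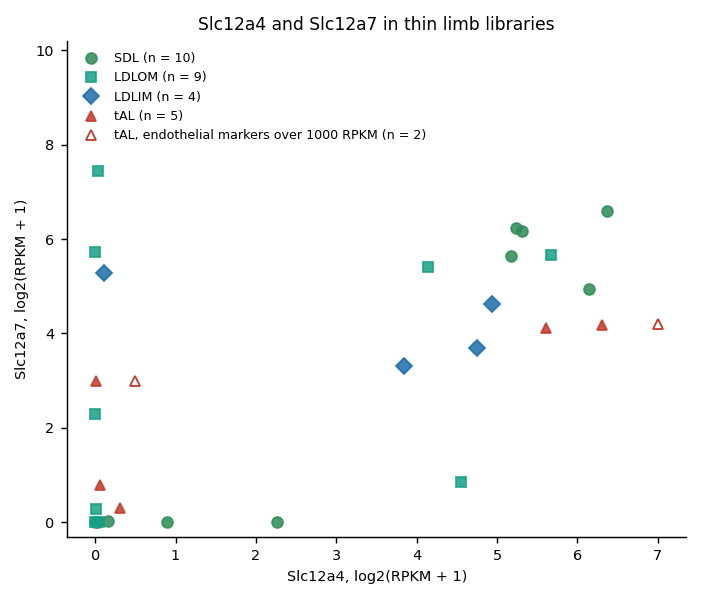
Slc12a4 (x axis) against Slc12a7 (y axis), both log2(RPKM + 1), in the 30 thin limb libraries. Symbols mark the segment, and open triangles the 2 tAL libraries with 8160 and 5005 RPKM of endothelial markers. The SDL libraries form a high group of 5 and a low group of 5.

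In the glomerulus Slc12a4 led the 5 genes. The 5 libraries held 47.5, 43.8, 37.1, 38.1 and 73.9 RPKM of Slc12a4, which made up 56.5 ± 14.4% of the sum of the 5 genes (SD, n = 5). Slc12a4 was the highest of the 5 genes in 4 of the 5 libraries. Its median there, 43.8 RPKM, was the highest of all groups. Slc12a2 was at 19.3, 10.1, 18.1, 22.5 and 7.14 RPKM and Slc12a7 at 5.64, 3.63, 5.404, 4.45 and 9.35 RPKM. All 5 libraries thus held the basolateral carrier and both potassium-chloride cotransporters, beside 1130 to 3912 RPKM of podocyte markers and 530 to 1083 RPKM of endothelial markers. Slc12a3 was at 0 to 0.0414 RPKM in 4 libraries and at 1.47 RPKM in the fifth, Glomerulus 2.

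Against S1, the segment that leaves the glomerulus, 3 of the 5 genes were called and all 3 were lower in S1. In that comparison 44.2% of all entries were called, 41.0% were lower in S1, and the median change was -1.62, so a lower level in S1 was common. Quantile normalization moved that median to 0.07. Slc12a4 fell to a median of 0.483 RPKM in S1 (range 0 to 75.3), with a log2 change of -4.04 ± 1.08 and an adjusted p of 0.00159 by limma, and the groups overlapped only through S1 3. It was called under each of the 11 alternatives run for this comparison, at -5.69 to -2.98. Detected entries as a covariate and leaving out shallow libraries were not among them. Slc12a2 was at 0 to 0.177 RPKM in S1 with a median of 0.00928, and no S1 library reached the glomerulus range. Its log2 change was -3.86 ± 0.88 with an adjusted p of 2.21e-04 by limma, and -1.35 with an adjusted p of 0.217 under quantile normalization. Slc12a7 (-2.04 ± 1.03, adjusted p = 0.0917) and Slc12a3 (0.74 ± 0.51, adjusted p = 0.218) were not called. Under quantile normalization Slc12a3 was called higher in S1 (1.63, adjusted p = 0.0321 by limma), and with the 2 groups fitted alone Slc12a7 was called lower (-2.04, adjusted p = 0.00100).

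Slc12a1 in the glomerulus varied with thick ascending limb markers. It was at 49.5, 25.5, 6.61, 0.586 and 3.51 RPKM in libraries 1 to 5, and the 7 markers summed to 293, 287, 80.0, 4.45 and 49.5 RPKM in the same libraries. The log2 change to S1 was -2.33 ± 0.77 with an adjusted p of 0.0109 by limma. It was -1.72 with an adjusted p of 0.0809 without Glomerulus 1, and -0.16 with an adjusted p of 0.9495 under quantile normalization. The part of these markers in the glomerulus level was not tested.

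In the water-load experiment, which asked how cortical collecting ducts respond to extra water under constant ddAVP, none of the 5 genes was called. Of the 8968 entries tested 0.134% were called at an adjusted p under 0.05 by limma, and 0 of the 4 tested members, of which 0 had an unadjusted p under 0.05. The smallest p that the exact permutation test of 4 against 4 can give is 0.0286. Slc12a1 was at 21.0, 6.56, 20.6 and 0.331 RPKM in the controls and 4.24, 10.0, 4.73 and 0.225 RPKM in the water-loaded rats, and the groups overlapped. Its log2 change was -0.89 ± 0.85 (adjusted p = 0.870 by limma, exact two-sided permutation p = 0.486), both unpaired. It was lower under water load in 3 of 4 pairs of rats with the same number, which no label says are matched. Slc12a2 was at 1.47, 1.60, 2.77 and 1.03 RPKM in the controls and 1.11, 1.67, 2.44 and 0.760 RPKM under water load, with a change of -0.13 ± 0.43 (exact permutation p = 0.629). Slc12a4, at 4.20 to 18.9 RPKM in controls and 4.03 to 15.8 RPKM under water load, changed by -0.09 ± 0.51 (exact permutation p = 0.857). Slc12a7, at 0.272 to 9.27 RPKM and 1.28 to 8.85 RPKM, changed by 0.36 ± 0.64 (exact permutation p = 0.629). Slc12a3 was under 1 RPKM in 7 of 8 libraries and was not tested by limma (exact permutation p = 0.886), with 4.01 RPKM in control 1. Adjusted p-values of Slc12a2, Slc12a4 and Slc12a7 were 0.978, 0.995 and 0.948 by limma.

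**Figure D5:**
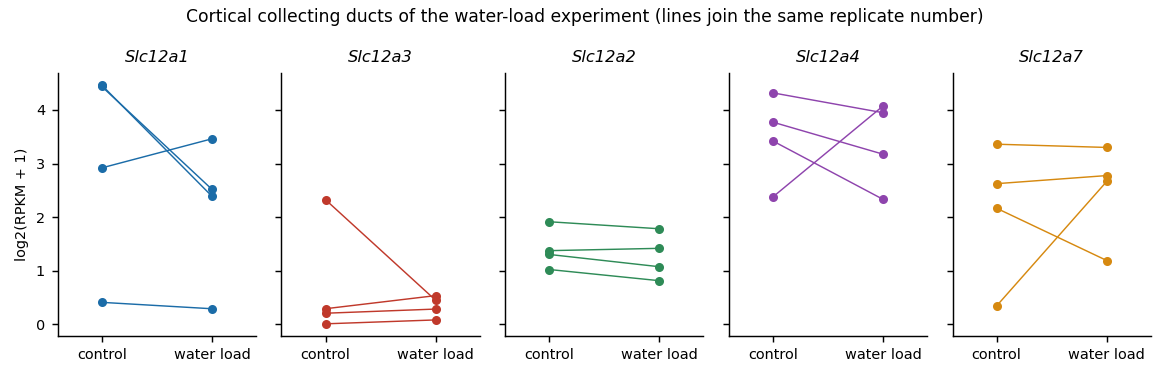
log2(RPKM + 1) of each of the 5 genes (y axis) in cortical collecting ducts of 4 control and 4 water-loaded rats (x axis), all given ddAVP. Each point is 1 library and lines join the same replicate number. The 2 groups overlap for every gene.

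The kinases and other proteins that act on these carriers were taken as a list of 18 genes, of which 16 were in the table and 14 were tested. From tAL to mTAL, where Slc12a1 rose, 1.07% of all entries were called higher and 5.47% lower. Of the 14 list genes 2 were higher there and 0 lower, with a list median of -1.19 against -0.51 over all entries. These were Umod, which encodes uromodulin, a protein of the thick ascending limb known to act on NKCC2 (9.27 ± 1.09, adjusted p = 1.26e-10 by limma), and Ppp1r1a, which encodes inhibitor-1 of protein phosphatase 1 (6.35 ± 0.78, adjusted p = 8.21e-10). From cTAL to DCT, where 0.462% of all entries were called lower, 1 was lower and 0 higher. That gene was again Umod (-4.04 ± 1.05, adjusted p = 0.0243 by limma), and the list median was 0.23 against 0.05. Ppp1r1a had medians of 407 RPKM in cTAL and 228 RPKM in DCT, and so stood high in the segments of both apical carriers. From DCT to CNT, where Slc12a3 fell, 2 were lower, Ppp1r1a (-7.58 ± 0.79, adjusted p = 5.26e-13 by limma) and Umod (-7.58 ± 1.10, adjusted p = 1.83e-07), with a list median of -0.41 against -0.10. Of all entries 1.33% were called lower there.

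Wnk1, a kinase at the head of this pathway, was called from mTAL (median 1.15 RPKM) to cTAL (51.6 RPKM), at 3.92 ± 0.88 with an adjusted p of 0.00383 by limma, the only 1 of the 14 genes there, where 1.06% of all entries were called higher. In DCT its median was 221 RPKM, with a range of 54.9 to 1538. Wnk4 had medians of 16.9 RPKM in cTAL and 40.9 in DCT, and Stk39, which encodes SPAK, 5.02 and 19.8 RPKM. Neither was called between these segments. From OMCD to IMCD, where Slc12a2 fell, Sorl1 was higher (2.99 ± 0.89, adjusted p = 0.0199 by limma) and Umod lower (-3.42 ± 1.05, adjusted p = 0.0263). Of all entries 6.7% were called higher there and 1.0% lower, so 1 higher gene of 14 was near the share of all entries. From CCD to OMCD none of the 14 was called by limma. Mal, which encodes a membrane protein of apical sorting known to bind NKCC2, was higher in SDL and LDLOM than in S3 (5.44 ± 0.82 and 3.49 ± 0.84). In these 2 comparisons 3.69% and 1.24% of all entries were called higher.

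Channels, the sodium pump and exchangers that work beside these carriers formed a list of 15 genes, of which 13 were tested. From tAL to mTAL 2 were higher, the potassium channel gene Kcnj1, which encodes ROMK (2.43 ± 0.68, adjusted p = 0.0166 by limma), and Fxyd2, a subunit of the sodium pump (2.32 ± 0.59, adjusted p = 0.00692). At this boundary 1.07% of all entries were called higher. There 2 were lower, as were 5.47% of all entries, among them Bsnd, which encodes barttin (-4.09 ± 1.09, adjusted p = 0.0105), with a list median of 1.45 against -0.51. From cTAL to DCT 1 was higher, Kcnj10, a basolateral potassium channel of the DCT (2.35 ± 0.66, adjusted p = 0.0483), with a list median of -0.02 against 0.05. Of all entries 0.573% were called higher there.

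From DCT to CNT, where 0.872% of all entries were called higher, 2 of the 13 were higher, the anion exchanger genes Slc26a4 (6.20 ± 0.71, adjusted p = 3.79e-11 by limma) and Slc4a9 (4.35 ± 0.64, adjusted p = 3.17e-07), both of base-secreting intercalated cells. From CCD to OMCD, where Slc12a2 rose, these 2 genes were lower (-4.53 ± 0.64 and -2.78 ± 0.58), as were 1.27% of all entries, and no other gene of the list was called. From OMCD to IMCD 5 were lower, among them Kcnj1 (-3.84 ± 0.66), Slc26a4 (-3.06 ± 0.68), Slc4a9 (-2.87 ± 0.62) and Kcnj10 (-2.08 ± 0.66), with a list median of -0.84 against 0.55. At this boundary 1.0% of all entries were called lower. Slc12a2 was called in the opposite direction to these 2 exchanger genes from CCD to OMCD and in the same direction from OMCD to IMCD.

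Other Slc12 genes of the table were low in tubules. Slc12a5, which encodes the neuronal cotransporter KCC2, was at a median of 0 in every tubule group and was not tested. Slc12a9 had group medians of 0 to 3.37 RPKM and was called between no neighbours by limma. Slc12a8 was lower in SDL and LDLOM than in S3 (-1.60 ± 0.42 and -1.70 ± 0.42, adjusted p = 0.00498 and 0.00382 by limma), and its highest group median was 4.84 RPKM in S2. In these 2 comparisons 3.86% and 3.94% of all entries were called lower.

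Genes most like each cotransporter were named by Pearson's r of log2(RPKM + 1) over all tubule libraries, among tested entries of other genes, with r over the 14 segment means beside it. For Slc12a1 these were Umod (0.77, 0.88), Igf1 (0.74, 0.88), Ptger3 (0.72, 0.83), Lrrc66 (0.72, 0.99) and Cldn10 (0.71, 0.83). For Slc12a3 they were Sgca (0.85, 0.98), Mlana (0.82, 0.98), Fetub (0.81, 0.98), Kcng1 (0.79, 0.97) and Fndc5 (0.74, 0.97). The 5 genes nearest to Slc12a2 were less alike, with Soat1 at 0.55 and Ctdspl2 at 0.52 ahead of Rad21, Qsox1 and Trpc1. Rnd2 (0.64) and Gtf3c1 (0.61) led for Slc12a4, ahead of Zc3h11a, Man2a2 and Itgb4. Baz1b (0.67) and Thbs1 (0.62) led for Slc12a7, ahead of Fzd9, Sestd1 and Abcg1. The libraries share depth and segment, so these values are descriptions, with no test.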

How the data were processed

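RPKM values were used as deposited. The authors computed them per RefSeq transcript from paired 50 nt reads of a single-cell protocol, and per the submitters' processing notes Trimmomatic 0.32, STAR 2.3.0-r192, SAMtools, HOMER and build rn5 were used. Neither order nor settings, nor how polyadenylation-site data entered, is given in the sources used here. In the second deposited table, made without those data, the glomerulus columns did not match the main table (Spearman's rho per library 0.0101 to 0.0143, against 0.909 to 0.974 for tubule libraries), so it was used for tubules only. Counts were not used, and limits from counting are unknown. From 89.1 to 97.9% of low values were whole steps of 1 read within 0.01.

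The members, lists and markers were chosen with earlier results of these data known. Groups follow the labels. Entries with at least 1 RPKM in 4 or more libraries were tested on log2(RPKM + 1) in R 4.3.3 by limma 3.58.1 (moderated, with a trend, two-sided). Adjustment was by Benjamini-Hochberg over all entries of a comparison. Tubule segments entered a single fit, and Glomerulus against S1 a fit that also held the 5 glomeruli. The 8 libraries of the water-load experiment had a fit of their own, without a limit on the change, and an exact permutation test. The behaviour of limma in groups that lie near 0 with a few high values was not tested. Some genes of the lists are not reported here. Named genes are the 5 members, the 3 lists, the markers and the 5 genes most like each member. Alternatives were quantile normalization, a pseudocount of 0.1, dropping the filter, the second table, 1 entry per symbol, the replicate number as a block, groups fitted alone, detected entries as a covariate, array quality weights for water load, and leaving out shallow or single libraries. Libraries with the same number correlated in the water-load experiment (residual r 0.210 to 0.321 over 4 pairs), but no label says that the numbers pair those rats. The block changed no call there. With it the log2 change of Slc12a1 was -0.89 ± 0.51 (adjusted p = 0.564 by limma). Tables were built with pandas 2.3.3 and numpy 2.4.6 under Python 3.11.15, and plots with matplotlib 3.10.9.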

Additional observations from a re-analysis of the deposited data

Results flagged for a closer look

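Of 80 groups of 4 to 10 libraries over the 5 genes, 11 held a library far above the others of its group by Dixon's criterion (13.75%). The 80 include groups whose highest log2(RPKM + 1) was below 1, which were not flagged in any case. Many groups lie near 0 with a few high values, so the nominal rate of 1 in 20 cannot be set against this share. For Slc12a1 these were S2 7 at 5.05 RPKM (others up to 0.832), LDLOM 1 at 38.5 RPKM (others up to 1.98) and CNT 6 at 3.68 RPKM (others up to 0.364). For Slc12a3 they were S3 5 at 65.8 RPKM (others up to 0.0108), CNT 4 at 2.18 RPKM (others up to 0.0908), Glomerulus 2 at 1.47 RPKM (others up to 0.0414) and control 1 of the water-load experiment at 4.01 RPKM (others up to 0.226). Slc12a4 and Slc12a7 stood out together in 2 libraries, S1 3 with Slc12a4 at 75.3 RPKM and Slc12a7 at 4.42 RPKM, and mTAL 7 with Slc12a4 at 5.51 RPKM and Slc12a7 at 5.93 RPKM. In mTAL 7 the entries at 1 RPKM or more numbered 7129, the most of the mTAL group, and its thick ascending limb markers summed to 1476 RPKM, within the range of the others.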

How the results depend on the processing

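For 15 selected changes, 137 values under the alternatives kept direction and side of the threshold, 5 lost a call, 1 gained one and 4 changed sign. Of the 5, 3 concern Slc12a1 and Slc12a2 in Glomerulus against S1. Calls gained by other changes are given beside them in the results. Slc12a4 from OMCD to IMCD turned from 0.07 to -0.73 under quantile normalization and -0.94 with detected entries as a covariate, and Slc12a7 from mTAL to cTAL from 0.29 to -0.30 and -0.81, none of them called. The fall of Slc12a2 from OMCD to IMCD lost its call with a pseudocount of 0.1 (-3.01) and with groups fitted alone (-2.45). Slc12a7 from S3 to SDL passed without libraries under 2500 entries (2.66, adjusted p = 0.0352 by limma). The cause was not tested for any of these. Calls between neighbours numbered 5 to 8 over the settings against 6, and 6 to 7 when single LDLIM libraries were left out. Glomerulus calls numbered 2 to 3 without single glomeruli, and water-load calls 0 without any 1 library. Residuals of neighbouring segment libraries with the same number had a median r near 0, with single pairs up to 0.723. All 7 pairs were positive from mTAL to cTAL (0.00190 to 0.329) and from cTAL to DCT (0.0405 to 0.624). The other neighbour comparisons also held negative pairs. The replicate block left the neighbour calls at 6. Without single LDLIM libraries the change of Slc12a4 from LDLOM to LDLIM ran from 1.29 to 2.905. Depth limits the low values, and 11 tubule libraries had fewer than 2500 entries at 1 RPKM or more.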
